A study of Saccharomyces cerevisiae with 21 samples.

Results

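Cultures of a barcoded budding yeast library grown with 5-FC and methotrexate (MTX) were compared with cultures grown with MTX and no drug. The comparison takes in 4 of the 21 libraries of the series, chosen by their titles: replicates A and B of the 5-FC group, which had 0.2 µM 5-FC and 10 µg/mL MTX, and replicates A and B of the no drug group, which had 10 µg/mL MTX only. Both groups thus carried MTX. All 4 cultures grew in minimal glucose medium at 30 °C for 96 h and were diluted 1 in 8 every 24 h. The strains came from an in-house library of Saccharomyces cerevisiae that was grown as pools, so no strain was measured on its own. The 4 libraries made with the same drugs but without MTX served as a background that shares no library with the comparison.

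The assay is a protein-fragment complementation assay. A pair of proteins carries fragments of a reporter, here a dihydrofolate reductase that MTX leaves active, and the fragments fold into a working enzyme when the pair comes together. MTX blocks the cell's own dihydrofolate reductase, which keeps up the folates needed for thymidylate and purine synthesis, so growth in MTX follows the reporter. The labels give 5-FC only by that abbreviation, by which the antifungal 5-fluorocytosine is commonly known. Yeast deaminates 5-fluorocytosine to fluorouracil, whose nucleotides enter RNA and inhibit thymidylate synthase.

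The values are raw read counts of 361 strain barcodes in 62 pools, of which 61 carry a protein pair, built from 44 proteins, and 1 is a reference without a pair. The term feature stands below for 1 strain barcode in 1 pool, and its share is its percentage of the reads of that pool. The 5-FC libraries held 8587410 and 9875141 reads and the no drug libraries 7771328 and 7486144, each value for replicates A and B in that order, as throughout. The lowest pool totals were 42106 and 47591 reads with 5-FC, and 4767 and 12376 without drug. The replicates of the no drug group lay further apart than those of the 5-FC group. The SD of the log2 share between replicates, over features, was 1.74 without drug and 1.43 with 5-FC, and chi-square per degree of freedom was 37.8 and 22.9. Nothing states that replicates were separate cultures, so the p-values measure only the spread between libraries. The fitted tests took that spread from all 20 libraries at 96 h, in 10 groups that included other drugs. Shares within a pool sum to 100%, so a strain that gained and other strains that lost cannot be told apart.

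With 5-FC, strains that were rare under MTX alone were more abundant. Of 15974 features tested, 201 rose (1.26%) and 33 fell (0.207%), which is 234 calls or 1.46% of the features (quasi-likelihood test of edgeR, threshold of 0.05 on p-values adjusted by the Benjamini-Hochberg method). The rises make up 85.9% of the calls, and the median log2 fold change over all tested features was 0.31. The calls lay in 52 pools and belonged to 121 strains, 53 of which were called in more than 1 pool. Among calls, 226 had replicates that did not overlap between groups, against 43.8% of all tested features. The median share of the features that rose was 0.200% and 0.224% with 5-FC, and 0.00774% and 0.00887% without drug. In the cultures without MTX the same features had median shares of 0.434% and 0.449% with 5-FC, and of 0.348% and 0.305% without drug. The median over all tested features lay between 0.0847% and 0.0934% in these 4 libraries without MTX, below the medians of the features that rose. Their low share without drug and with MTX is part of what the call selected. The read filter averaged all 20 libraries. A feature with few reads in that group could pass it only through other groups, those without MTX among them. Their higher share without MTX is thus partly set by the filter.

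The features that fell were those that the call selected for a high share without drug. Their median share was 0.0288% and 0.0212% with 5-FC, against 1.41% and 0.233% without drug. Without MTX their medians were 0.118% and 0.132% with 5-FC and 0.140% and 0.166% without drug. Replicate A without drug was above replicate B in 23 of the 33.

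The number of calls rested on single libraries. It was 91 and 81 without replicate A or B of the 5-FC group, and 22 and 147 without replicate A or B of the no drug group, and in the last case 60 features rose and 87 fell. Calls that held without each library in turn were 8 rises and 3 falls. These are, among the rises, strains 335, 375, 841, 599_ref1 and 599_ref2 in the pool of ERV25 and RBD2, strain 409 in the pools of HNM1 with RBD2 and of PLM2 with SNA3, and strain 271 in the pool of HUG1 and ADE17. The falls are strain 40_2 in the reference pool, strain 64 in the pool of PLM2 and SNA3 and strain 1020 in the pool of MID2 and WSC2. Scaling mattered too: TMM factors over whole libraries in place of pool totals left 29 calls, and TMM factors within each pool left 136.

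**Figure D1:**
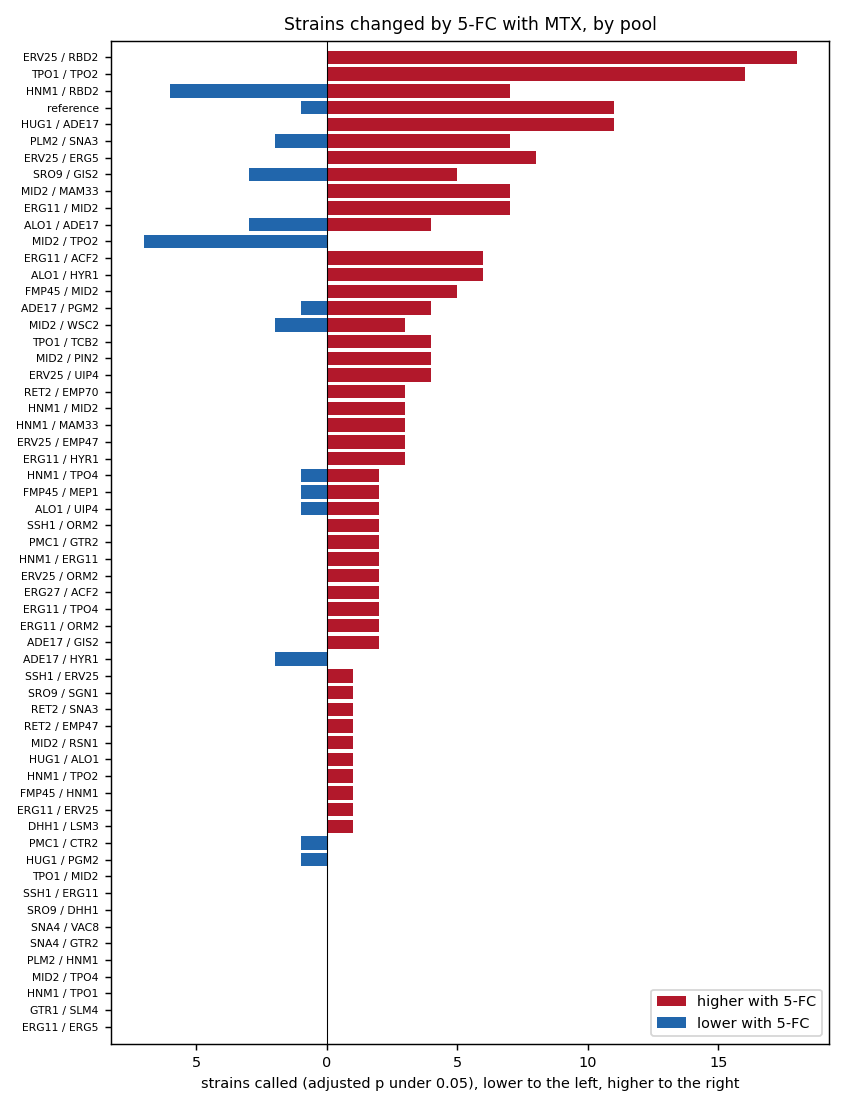
Number of strains called in each of 59 pools in the comparison of 5-FC with no drug, both with MTX. Bars to the right count strains that were higher with 5-FC and bars to the left strains that were lower. The pool of ERV25 and RBD2 has 18 rises, and the pool of MID2 and TPO2 has 7 falls and no rise.

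The pool that pairs ERV25 (YML012W) with RBD2 (YPL246C) held the most calls, 18 rises among 218 features. ERV25 is a p24 protein that takes part in cargo transport between the endoplasmic reticulum and the Golgi, and RBD2 is a rhomboid-family membrane protein. Strain 931 led this pool in all 4 libraries, with 59.1% and 54.4% of reads with 5-FC and 80.9% and 91.8% without drug. Its own log2 change was -0.60 and did not pass the test (edgeR, adjusted p = 0.677). The 18 strains that rose held 20.2% and 11.2% of the pool together with 5-FC, and 0.510% and 0.344% without drug. All 18 together were a sizeable minority with 5-FC and a trace without it, a difference for which the call selected them.

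Strain 599_ref1 in this pool had shares of 3.95% and 2.03% with 5-FC, and 0.0129% and 0.00681% without drug. On the log2 scale it rose by 8.26 with a standard error (SE) of 0.77 (adjusted p by edgeR = 1.47e-05). Strain 599_ref2 had 1.64% and 0.849% with 5-FC against 0.00215% and 0.00954%, a change of 7.64 with an SE of 0.88. Neither strain's groups overlapped. Strain 335 had 2.49% and 0.700% with 5-FC, and in medium without drug 0.00430% in replicate A and no read in replicate B. Strain 364 had 0.272% and 0.245% with 5-FC and no read in either no drug library, so it was at least 98.1-fold higher (floor of 3 reads per library, adjusted p = 0.00529). Without MTX, strain 364 had 0.108% and 0.0826% with 5-FC and 0.0775% and 0.112% without drug, so those groups overlapped. Strain 180_2 had 3 reads in replicate A with 5-FC and 278 in replicate B, against none without drug, and was not called when replicate B was left out (adjusted p = 0.341).

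**Figure D2:**
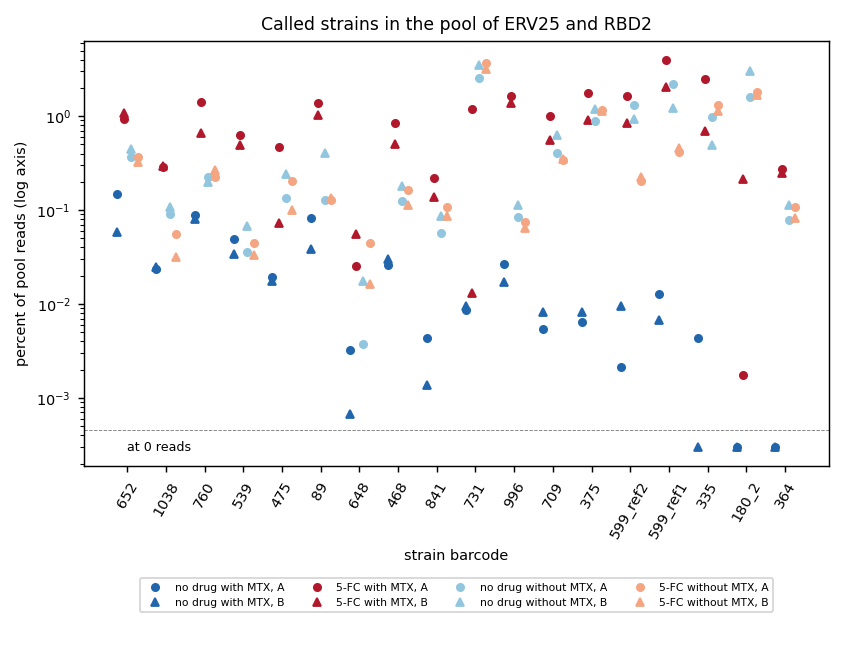
Shares of the 18 called strains in the pool of ERV25 and RBD2 in 8 libraries, on a log axis in percent of pool reads. Points below the dashed line had no read. The dark blue points, no drug with MTX, lie below the other libraries for nearly all strains, and strain 599_ref1 reaches 3.95% with 5-FC and MTX.

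SSH1 (YBR283C) is a subunit of an endoplasmic reticulum translocon, and RET2 (YFR051C) a coatomer subunit. Over the 14 pools with SSH1, ERV25 or RET2, the pool of ERV25 and RBD2 included, 58 of 3454 features rose and 1 fell, 1.71% in all, with a median log2 change of 0.32. This share lies near the 1.46% of all features.

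Among transporters, HNM1 (YGL077C) imports choline, and TPO1 (YLL028W), TPO2 (YGR138C) and TPO4 (YOR273C) export polyamines. The pool of HNM1 and RBD2 had 7 rises and 6 falls among 182 features. Strain 409 had 20.9% and 23.7% of this pool with 5-FC, and 0.707% and 0.245% without drug. Its groups lay far apart, with a log2 fold change of 5.59 and an SE of 0.71 (edgeR, adjusted p = 0.000372). The falls in the same pool came with uneven controls: the no drug replicates held 5944 and 51772 reads there and differed in 74.9% of their reads. Strain 89 had 0.0487% and 0.0212% with 5-FC against 3.43% and 0.0618%, and its adjusted p was 0.783 without replicate A of the no drug group. Strain 860 had 0.0144% and 0.00706% with 5-FC against 0.808% and 0.0444%, and its adjusted p was 0.546 without that replicate. Leaving out the whole pool brought the calls of the comparison from 234 to 221.

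The pool of TPO1 and TPO2 had 16 rises and no fall among 243 features. These strains were rare in every library with MTX: their median share was 0.0221% and 0.0693% with 5-FC, and 0.00179% and 0.00103% without drug. Replicate B with 5-FC was above replicate A for 15 of the 16. Strain 798 had 0.0191% and 0.115% with 5-FC and no read in the no drug libraries, so it was at least 20.2-fold higher (adjusted p by edgeR = 0.00809). It did not pass without replicate B of the 5-FC group (adjusted p = 0.0592), nor without either no drug replicate (0.105 and 0.0603).

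The pool of TPO2 and the cell wall stress sensor MID2 (YLR332W) had 7 falls and no rise. Its strains that fell held 7.34% and 0.647% of the pool without drug, and 0.159% and 0.0725% with 5-FC. All 7 were higher in replicate A than in replicate B without drug, and replicate A held 4767 reads of this pool. Strain 187, for example, had 68 reads and 1 read without drug and none with 5-FC. It was at least 197-fold lower with 5-FC by the mean of both no drug libraries, yet did not pass without replicate A (adjusted p = 0.620). Over the 17 pools with a listed transporter, 43 of 4285 features rose and 15 fell, 1.35% in all against 1.46% of all features.

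ADE17 (YMR120C) carries out the last steps of purine synthesis, and HUG1 (YML058W-A) is a small protein of the replication stress response that inhibits ribonucleotide reductase. The 7 pools with either protein had 22 rises and 7 falls among 1682 features, 1.72% in all with a median log2 change of 0.23, near the 1.46% and 0.31 of all features. Of these rises, 11 were in the pool that pairs HUG1 with ADE17. Strain 271 there had 0.343% and 0.110% with 5-FC and no read without drug, and was at least 59.6-fold higher (adjusted p by edgeR = 0.00165). Without MTX it had 0.451% and 0.398% with 5-FC against 0.422% and 0.304% without drug. Strain 79 had 0.0102% in replicate A with 5-FC and 1.37% in replicate B, against 0.00155% and 0.000985%, and was not called without replicate B (adjusted p = 0.672). The pools of HUG1 with ALO1 and with PGM2 had 1 rise and 1 fall between them.

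The leading strain changed in the pool of ADE17 and PGM2 (YMR105C), a phosphoglucomutase. Strain 676 held 46.2% and 35.0% of reads without drug, and 4.78% and 6.39% with 5-FC. It fell by 2.86 on the log2 scale with an SE of 0.58 (edgeR, adjusted p = 0.0179). Strain 538 led with 5-FC, at 36.5% and 38.6% against 18.1% and 29.6%, and did not pass (adjusted p = 0.752). Strains 690 and 727 rose in the same pool, strain 690 to 5.05% and 4.54% from 0.0854% and 0.0588%. Strain 690 also led the pool of ADE17 and HYR1 (YIR037W), a thiol peroxidase, where it held 50.8% and 52.9% with 5-FC and 25.9% and 23.8% without drug. The groups did not overlap there either, but the log2 change of 1.06 did not pass (adjusted p = 0.473).

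That pool of ADE17 and HYR1 had 2 falls and no rise. Strain 460 fell in it to 0.0212% and 0.0476% from 3.97% and 0.103%, and its adjusted p was 0.604 without replicate A of the no drug group. The pool of ADE17 with ALO1 (YML086C), the last enzyme of erythroascorbate synthesis, had 4 rises and 3 falls among 247 features. Strain 842 held 10.2% and 7.23% of it without drug and 0.106% and 0.156% with 5-FC, a log2 change of -6.05 with an SE of 1.07. Strain 841 went the other way, from 0.153% and 0.208% to 2.27% and 3.39%. In the pool of ADE17 with the RNA-binding protein GIS2 (YNL255C), 2 of 201 features rose and strain 760 led in all 4 libraries. Pools of the antioxidant proteins ALO1 and HYR1 had 16 rises and 6 falls among 1545 features, or 1.42%, near the 1.46% of all features.

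A strain took over in the pool of PLM2 (YDR501W), a forkhead-associated domain protein, and SNA3 (YJL151C), a membrane protein sorted to the vacuole. Strain 409 rose to 36.4% and 35.3% of reads from 2.56% and 1.29%, a log2 fold change of 4.22 with an SE of 0.51 (edgeR, adjusted p = 0.000232). Strain 64 fell from 7.14% and 13.3% to 0.433% and 0.111%, and strain 1018 from 7.14% and 12.7% to 0.493% and 0.212%. All groups of these strains stood apart. Without MTX, strain 409 was also higher with 5-FC in this pool, at 11.5% and 12.6% against 2.97% and 2.72%, without passing the test (adjusted p = 0.429).

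MID2 and WSC2 (YNL283C) are sensors of cell wall stress. In their joint pool strain 409 held 22.6% and 23.1% with 5-FC, against 2.58% and 3.27% without drug, and took the lead from strain 838. Strain 1020 fell in this pool from 2.88% and 8.61% to 0.282% and 0.0788%, a change of -4.997 with an SE of 0.73 (edgeR, adjusted p = 0.00182). Strain 89 fell from 16.9% and 12.4% to 2.46% and 1.34%. Strain 775 was called on few reads, 3 and 7 with 5-FC against none without drug, at least 1.61-fold higher by the floor. The 12 pools with MID2, WSC2 or the eisosome-associated protein FMP45 (YDL222C) had 33 rises and 10 falls among 3346 features, or 1.29% with a median of 0.38, near the 1.46% and 0.31 of all features.

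A smaller share of features was called over the pools of RNA-binding proteins and of the EGO complex, though not for GIS2. Most pools had a share below that over all features. The median share over pools was 0.988%, and 20 of the 62 pools lay above 1.46%. Those of the RNA-binding proteins SRO9, DHH1 and GIS2 had 9 rises and 3 falls among 1379 features, or 0.870% against 1.46% of all features. The share was 0.174% in the pools with DHH1 and 1.01% in those with SRO9. The pool of SRO9 and DHH1 had no call, and no drug replicate A held only 5835 reads of it. The pools with GIS2 had 7 rises and 3 falls among 485 features, or 2.06%, which is above the 1.46%. One of the falls, strain 192 in the pool of SRO9 and GIS2, rested on 38 reads in replicate A without drug against 1 in replicate B, and on 2 and 6 reads with 5-FC. The EGO complex anchors the amino acid signalling that acts through TORC1 on the vacuole. In the pools of its members GTR1, GTR2 and SLM4, 2 of 795 features rose, or 0.252%. Of these, strain 599_ref1 in the pool of GTR2 with the vacuolar calcium pump PMC1 had 0.0779% and 0.0244% with 5-FC and no read without drug, at least 14.5-fold higher. Strain 599_ref2 had no read without drug either in the pool of ALO1 and UIP4, where it had 0.0314% and 0.0855% with 5-FC and was at least 15.2-fold higher.

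The reference pool changed as well, although it holds no protein pair. It had 11 rises and 1 fall among 325 features, or 3.69% against 1.46% of all features, and a median log2 change of 0.97 against 0.31. Strain 40_2 had 2 reads and 1 read with 5-FC, against 2392 and 2597 reads without drug, which were 1.91% and 2.84% of the pool. It fell by 10.90 on the log2 scale with an SE of 1.11 (edgeR, adjusted p = 4.76e-05). Strain 252 led this pool without drug, at 28.8% and 25.8%, and had 6.23% and 8.81% with 5-FC, without passing the test (adjusted p = 0.562). Strain 838 led with 5-FC, at 22.9% and 12.8% against 4.93% and 10.9%.

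Set against the change that the reference pool showed for that strain, 31 features moved up (0.205%) and 242 down (1.6%), 273 of 15142 or 1.8% (edgeR's quasi-likelihood test). The counts of the reference pool enter every such difference, whose median was -0.74 over all features tested. At least 1 downward call was found in 60 pools and an upward call in 18. The pool of ERV25 and RBD2 gave 5 upward and no downward calls, and the pool of HNM1 and RBD2 had 1 and 24. These calls rested on single libraries: 10 were left without replicate A with 5-FC, 0 without replicate B, and 55 and 90 without replicate A or B of the no drug group. The direction rested on the scaling, since TMM factors within each pool gave 65 upward and 55 downward calls.

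Summed over pools, 25 of 361 strains changed, or 6.93%, 18 upward (4.99%) and 7 downward (1.94%) (edgeR's quasi-likelihood test on summed reads). At an unadjusted p under 0.05 there were 89. Strain 599_ref2 made up 0.0769% and 0.0931% of all reads with 5-FC, and 0.00331% and 0.00988% without drug, a log2 fold change of 3.59 with an SE of 0.53 (adjusted p = 0.000776). Strain 599_ref1 made up 0.160% and 0.171% against 0.00663% and 0.0285%, a change of 3.15 with an SE of 0.61. Both were higher in both 5-FC libraries than in either control. The plain barcode 599 had 1.44% and 1.63% against 1.10% and 1.31%, and did not pass (adjusted p = 0.790). What the endings of these names stand for is not stated.

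Both 599_ref barcodes had changes above 0 in most pools. Strain 599_ref2 rose in 13 of the 56 pools where it was tested, and strain 599_ref1 in 6 of 61, where 1.26% of all features rose. In 51 of the 56 pools where both were tested, both had a fitted change above 0, where 60% of all single features had one, and 3 pools had a call for both. Across these 56 pools the changes of the pair correlated with Pearson r = 0.34, each pool being sequenced in the same 4 libraries. Their median change over pools was 3.13 for strain 599_ref2 and 3.03 for strain 599_ref1 with MTX, and -0.12 and -0.32 without it. With MTX and no drug, median shares over pools were 0.000607% and 0.00132% for strain 599_ref2, and 0.00123% and 0.00329% for strain 599_ref1. With neither agent they were 0.0824% and 0.101%, and 0.104% and 0.118%. The changes with MTX thus rest on few reads in many pools and depend there on the prior count of the fit. Without MTX the changes ran both ways, from -4.35 to 6.49 for strain 599_ref2, with 27 of 56 pools above 0, and from -4.75 to 6.92 for strain 599_ref1, with 28 of 61. None of them passed the test (edgeR).

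Strain 409 rose in 9 of 61 pools, against 1.26% of all features, and its change was above 0 in 57 of them, where 60% of all features were above 0, with a median of 1.60 and a range from -1.36 to 5.59. It made up 2.87% and 1.84% of all reads with 5-FC and 0.442% and 0.271% without drug, a change of 2.53 (adjusted p = 0.00116). Without MTX it had 0.551% and 1.03% with 5-FC against 0.278% and 0.194%, and its median change over pools was 0.86. Strain 857 was a strain of a different kind: it made up 2.93% and 3.75% with 5-FC and 4.87% and 3.62% without drug in cultures without MTX, and with MTX only 0.0808% and 0.117% against 0.00930% and 0.0188%. Its change with MTX was 2.70 (adjusted p = 0.00134). Strains 841, 652 and 535 were called in 6, 5 and 5 pools, with median changes of 0.96, 0.94 and 0.88. Strain 271 rose by 2.33 in summed reads.

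Falls in summed reads were fewer. Strain 40_2 fell by 5.38, nearly all of it from the reference pool. Strain 64 made up 0.0697% and 0.0664% with 5-FC and 0.235% and 0.279% without drug, and fell by 2.06 (edgeR, adjusted p = 0.00159). Its median change over 59 pools was 0.03, and it fell in 2 of them. Strains 192, 506 and 999 fell by 2.45, 2.09 and 1.67, and strain 192 had 0.0547% in replicate A without drug against 0.00809% in replicate B. Leaving out replicate A of either group brought the 25 strains to 10. Of the variance over features of the mean change in log2 share (pseudocount of 0.5 reads), 15.6% lay between strain means and 13.5% between pool means. These shares are not corrected for the number of groups, 352 strains and 62 pools. Nor are they corrected for the effect of the pseudocount in shallow pools.

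**Figure D3:**
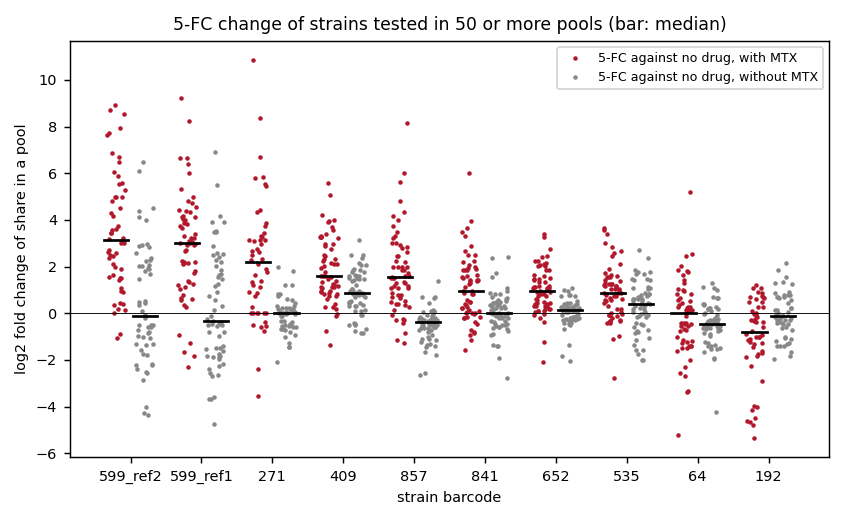
Log2 fold change of the named strains that were tested in 50 or more pools between 5-FC and no drug, each point being a pool, with MTX in red and without MTX in grey. Bars mark medians. Strains 599_ref1 and 599_ref2 have medians of 3.03 and 3.13 with MTX, and without it spread to both sides of 0, from -4.75 to 6.92 and from -4.35 to 6.49, while strain 409 has medians above 0 in both.

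Strain diversity was compared pool by pool. The effective number of strains, the exponential of the Shannon entropy of the shares, had a median over the 62 pools of 20.3 and 21.3 with 5-FC, and 19.5 and 17.8 without drug. The means of these medians were 20.8 ± 0.709 (SD, n = 2) and 18.6 ± 1.16 (SD, n = 2), a difference of 2.17. The 5-FC libraries were both above the no drug libraries, but 2 libraries against 2 cannot give an exact permutation p below 0.333, the value found (two-sided). Without MTX the medians were 54.8 and 57.6 with 5-FC against 60.3 and 59.2, so the order was the reverse. With MTX, both 5-FC libraries exceeded both no drug libraries in 35 pools, the opposite held in 5, and 22 pools overlapped. Without MTX these counts were 13 higher and 20 lower.

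Diversity rose in 7 pools, 11.3% of the 62, and fell in none (limma on the log2 effective number, adjusted p under 0.05), with 19 pools at an unadjusted p under 0.05. It was 7.11 and 6.83 with 5-FC and 2.44 and 1.67 without drug in the pool of ERV25 and RBD2, a log2 change of 1.79 with an SE of 0.29 (adjusted p = 0.000891). Each 5-FC library thus held more effective strains in this pool than either control. The pool of TPO1 with the membrane tether TCB2 (YNL087W) had 22.3 and 23.7 against 11.6 and 7.71. That of ERG11 (YHR007C), the lanosterol demethylase, with ACF2 (YLR144C), a beta-glucanase, had 12.7 and 16.3 against 6.60 and 6.33. The pool of ERG11 and HYR1 had 41.6 and 39.4 against 25.9 and 26.6.

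The reference pool was also among the 7, with 44.4 and 58.4 effective strains against 23.5 and 26.3 (log2 change 1.03, limma, adjusted p = 0.0298). The pool of ALO1 and ADE17 had 16.5 and 17.6 against 9.83 and 8.25. That rise went with strain 838, which held 23.5% and 8.31% of this pool with 5-FC and 45.3% and 53.0% without drug: with strain 838 left out of the shares the change was -0.12. The pool of MID2 with PIN2 (YOR104W), a protein linked to prion induction, had 25.2 and 30.5 against 10.9 and 9.00 and just missed the threshold (adjusted p = 0.0513). The pool of ADE17 and HYR1 had 8.44 and 8.23 against 13.3 and 14.6, a change of -0.74 that did not pass (adjusted p = 0.0950).

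Other pools with a lower diversity were those of ERG11 with TPO4, at a log2 change of -0.50, and of PLM2 with SNA3, at -0.45. Neither passed. The pools of HUG1 with ADE17, ALO1 and PGM2 had changes of 0.46, 0.36 and 0.35, and those of ADE17 with GIS2 and with PGM2 0.52 and -0.02, none of which passed. Leaving out replicate B of either group brought the 7 pools to 3.

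**Figure D4:**
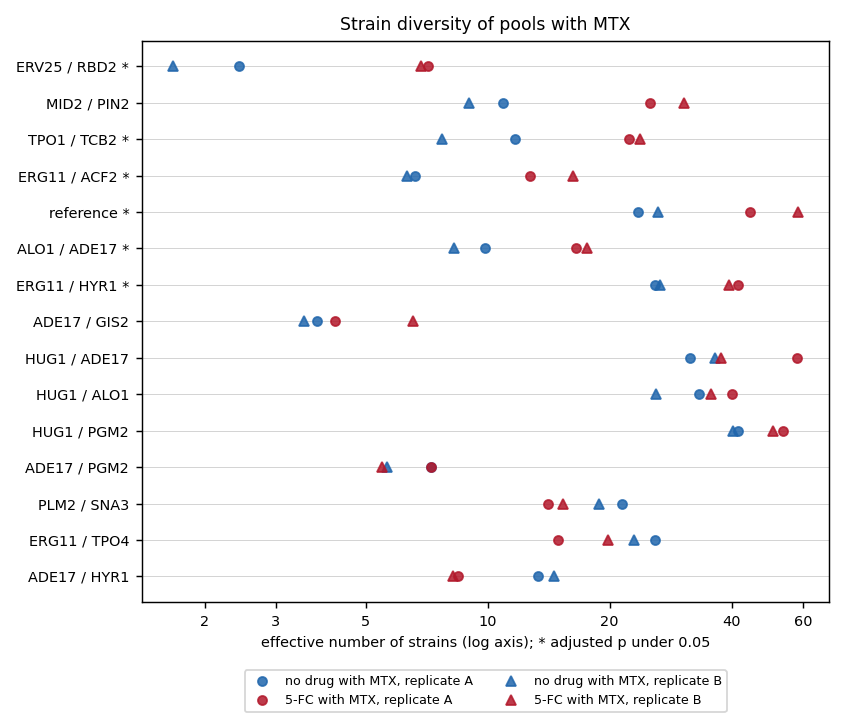
Effective number of strains in 15 pools with MTX, on a log axis, for both replicates of the 5-FC group (red) and of the no drug group (blue). Pools marked with an asterisk passed the test. In the pool of ERV25 and RBD2 the 5-FC libraries are at 7.11 and 6.83 and the no drug libraries at 2.44 and 1.67.

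How much of a pool's composition differed was measured as the share of reads that would have to move between strains to make libraries alike. The median over pools was 22.6% between groups, 9.91% between 5-FC replicates and 16.0% between no drug replicates. The ratio of the distance between groups to the mean distance between replicates had a median of 1.58 and was above 1 in 59 of 62 pools. In 34 pools all 4 distances between groups exceeded both distances between replicates. Without MTX the median ratio was 1.38, and the ratio was above 1 in 57 of 62 pools. The highest ratios were 3.29 in the pool of PLM2 and SNA3, 3.02 in that of FMP45 and MID2, and 2.98 in that of ADE17 and HYR1. The lowest were 0.963 in the pool of GTR1 (YML121W) and SLM4 (YBR077C), 0.968 in that of SSH1 and ERV25, and 0.978 in that of TPO1 and MID2. For GTR1 and SLM4 the replicate distances were unequal, 7.85% with 5-FC and 25.7% without drug. The distances between groups, from 13.4% to 19.8%, lay between these values.

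**Figure D5:**
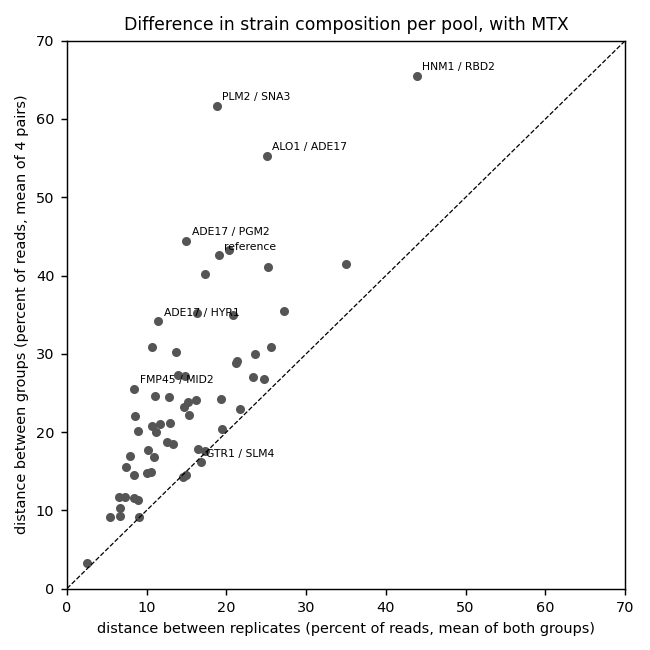
Distance in strain composition between groups against the mean distance between replicates, per pool, in percent of reads. The dashed line marks equal distances, and 59 of 62 pools lie above it, against 57 in the cultures without MTX (not drawn). The pool of PLM2 and SNA3 is at 61.7% between groups, and that of HNM1 and RBD2 has the widest gap between replicates.

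The most abundant strain seldom changed. Strain 838 led 47 and 46 pools with 5-FC, and 47 and 46 without drug, and the same strain led in all 4 libraries in 45 pools. Its median share was 29.9% and 28.6% with 5-FC and 33.3% and 31.2% without drug. It was lower with 5-FC without overlap in 27 pools and higher in 6, where 13.2% of all features were lower and 30.6% higher without overlap, and was called in 0 pools by edgeR's quasi-likelihood test. In 4 pools the replicates of each group shared a leader that differed between the groups. These were the reference pool and the pools of ADE17 with PGM2, of MID2 with WSC2 and of SSH1 with ERG11. In the last, strain 673 had 35.1% and 25.3% with 5-FC against 11.6% and 12.5%, and strain 838 led without drug at 24.0% and 30.4%.

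Without MTX, no feature passed the same test of 5-FC against no drug: 0 of 15974 were called, 0% of those tested. An unadjusted p under 0.05 was found for 750. DESeq2 called 47 there, a fit of only the groups compared called 143, and no strain passed in summed reads, with 16 at an unadjusted p under 0.05. Yet many features did not overlap between these groups, 21.6% being higher with 5-FC and 24.9% lower. With MTX these shares were 30.6% and 13.2%. Across the 15974 features, changes with and without MTX correlated with Pearson r = 0.07, features not being independent replicates. The changes of replicates A and B, each a difference of log2 shares between single libraries, correlated with r = 0.22 both with MTX and without it. That measure is unlike the fitted changes behind the 0.07, and the cause of the low correlation was not tested. No pool passed the limma test of diversity without MTX, with 4 at an unadjusted p under 0.05. The MTX effect on diversity differed between 5-FC and no drug in 6 pools, 9.68% of the 62, all upward.

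The difference of the MTX effect between 5-FC and no drug passed for 15 features, or 0.0939%, 14 of them upward (0.0876%) and 1 downward (0.00626%) (edgeR's quasi-likelihood test of the interaction). Of these, 14 were also called in the comparison with MTX, with which this test shares its libraries, and 9 lay in the pool of ERV25 and RBD2. For strain 599_ref1 in that pool the difference was 10.22 with an SE of 0.95 (adjusted p = 1.21e-05), and for strain 375 it was 7.33 with an SE of 1.00 (adjusted p = 0.00201). Strain 375 had 1.75% and 0.909% with 5-FC and MTX, 0.00645% and 0.00817% with MTX only, 1.15% and 1.13% with 5-FC only, and 0.887% and 1.18% with neither. It was thus scarce in just 1 of the 4 kinds of culture. The count was 2 without either replicate of the 5-FC group without MTX, 8 without replicate A of the no drug group with MTX, and 4 and 3 without replicate A or B of the group with neither agent.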

How the data were processed

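Strain barcodes were read from genomic DNA. The authors deposited raw read counts per strain barcode and pool, in whole numbers. Per the labels' protocols, barcodes were amplified in a 2-step PCR with cycle numbers set by qPCR, and products were pooled per growth condition. No molecular identifiers are mentioned, so counting errors cover the sampling of reads only. The read filter, the barcode matching program and a genome build are not given in the sources used here. All 44 proteins were matched by name to a table of yeast genes.

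Groups came from the sample titles. The test took 15974 of 22382 features, with 99.8% of reads, whose average over the 20 libraries at 96 h reached 10 reads. It was the quasi-likelihood test of edgeR 4.0.16 (R 4.3.3), with a coefficient for each of the 10 groups and the log pool total as offset. Strain sums used TMM scaling, and log2 effective numbers were fitted with limma 3.58.1. P-values were adjusted by Benjamini-Hochberg over each table, at a threshold of 0.05. Folds against 0 reads used a floor of 3 reads per library. Scripts were tested on simulated counts.

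The members and lists were chosen with earlier results of these data known. The text names the 8 largest rises and the 8 largest falls among calls without overlap, all calls for the difference of MTX effects, the reference pool, the 5 pools with the most calls, the 3 pools at each end of the diversity change and of the distance ratio, every pool with ADE17 or HUG1, and the 5 strains called in most pools, with the largest rise and with the largest fall. Some of these pools, and 1 list of pools, are not reported here. The other strains and pools named, such as pool leaders, were chosen after their values were seen.

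Libraries were not paired by replicate letter in the main fits. Deviations of same-lettered libraries of the groups compared correlated at r = 0.00 across features, which cannot decide whether the letters stand for batches. Alternatives were other scalings (TMM over libraries or within pools, totals without strain 838), another read filter (none, or an average of 50), DESeq2 1.42.0, a fit of only the groups compared, a replicate term, limma on mean log2 shares with a pseudocount of 0.5 reads, inverse Simpson index, Jensen-Shannon distance, thinned reads, and leaving out each replicate or the pool of HNM1 and RBD2. The totals without strain 838 and the left-out pool were added after the data were seen.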

Additional observations from a re-analysis of the deposited data

Results flagged for a closer look

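A difference between groups was flagged where the effect of MTX differed between medium with 5-FC and medium without drug by the test of that difference. All values below are such differences on the log2 scale, from edgeR's quasi-likelihood test for features, and those of strains without a read in a group depend on the prior count of the fit. The difference was 11.3 for strain 364, 10.2 for strain 599_ref1, 10.0 for strain 599_ref2, 8.95 for strain 335, 7.40 for strain 709, 7.33 for strain 375, 6.62 for strain 996, 5.57 for strain 841 and 5.36 for strain 89, all in the pool of ERV25 and RBD2. Strain 709 had 1.01% and 0.561% of this pool with 5-FC and MTX and 0.00538% and 0.00817% with MTX only, and strain 996 had 1.64% and 1.40% against 0.0269% and 0.0170%.

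Strain 271 in the pool of HUG1 and ADE17 differed by 10.6, strain 409 in the pool of HNM1 and RBD2 by 5.12, and strain 841 in the pool of ALO1 and ADE17 by 4.48. In the pool of MID2 and WSC2, strain 775 differed by 8.67 and strain 1020 by -5.32. Strain 599_ref1 in the pool of PMC1 and the copper transporter CTR2 differed by 9.32. It had 49 and 13 reads with 5-FC and MTX against 3 and 0 with MTX only, and in cultures without MTX 0.00980% and 0.000992% with 5-FC against 0.125% and 0.137%. Its change with MTX alone did not pass (adjusted p = 0.0676), so this difference rests on the cultures with and without MTX together.

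For the effective number of strains, 6 of 62 pools were flagged by the same difference under limma, which is 9.68%. The values were 2.18 for RET2 and SNA3, 1.84 for ERV25 and RBD2, 1.77 for TPO1 and TCB2, 1.66 for ERG11 and ACF2 and 0.933 for HNM1 and MAM33, with 1 pool not given. In the pool of RET2 and SNA3, diversity was 3.14 and 1.88 with 5-FC and MTX against 1.45 and 1.35 with MTX only, and 7.29 and 6.99 with 5-FC only against 11.9 and 29.1 with neither. Its change with MTX did not pass, nor did that of HNM1 and MAM33 (limma, adjusted p = 0.200 and 0.118). The latter pool had 51.6 and 51.6 with 5-FC only against 67.2 and 86.1 with neither. For TPO1 and TCB2 the values with neither were 43.0 and 80.6, the second from 4225 reads.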

How the results depend on the processing

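Depth was low in 2 pools with several falls, where no drug replicate A held 4767 reads (MID2 and TPO2) and 5944 reads (HNM1 and RBD2). The pool of SRO9 and GIS2, with 3 falls, held 11022 and 13785 reads without drug. All 3 falls were higher there in replicate A than in replicate B. Pools without a fall were also shallow in no drug replicate A, with 5234 reads (MID2 and RSN1), 5627 reads (MID2 and TPO4) and 5835 reads (SRO9 and DHH1). For features changed with MTX, the 234 calls became 29 with TMM over whole libraries, 136 with TMM within each pool, 764 in a fit of only the groups compared and 856 with DESeq2, and ranged from 22 to 147 when a replicate was left out. The rises were 85.9% of calls, 77.9% with TMM within each pool, 72.6% with only the groups compared and 40.8% without no drug replicate B. The median log2 change over all features was 0.31, and 0.21 with TMM within each pool. A replicate block, which the main fit left out, gave 177 calls, 172 of them shared with the 234. It gave 16 for the difference of MTX effects, 0 for 5-FC without MTX, 200 against the reference pool, 22 strains and 7 pools.

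For the difference of MTX effects, the 15 calls became 2 and 5 with the TMM scalings, 24 without a filter, 178 with only the groups compared and 255 with DESeq2, and ranged from 2 to 15 with a replicate left out. Without MTX, the 0 calls became 1 with TMM within each pool, 1 without a filter, 143 with only the groups compared and 47 with DESeq2. Against the reference pool, the 273 calls became 120 with TMM within each pool (54.2% upward in place of 11.4%), 520 with totals without strain 838 and 939 with only the groups compared, and ranged from 0 to 90 with a replicate left out.

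The 25 strains became 51 with DESeq2 and 64 with limma on mean log2 shares, and ranged from 10 to 27. They split 72.0% upward, 50.0% with only the groups compared, 81.5% with total reads and 92.2% with limma. The 7 pools became 3 with the inverse Simpson index and 11 without strain 838, and ranged from 3 to 7. The difference of 2.17 in the median effective number was 0.527 to 3.90 over its alternatives, and the median distance ratio of 1.58 was 1.47 with the Jensen-Shannon distance and 1.53 with thinned reads.

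Among single named items, 2 turned: strain 535 in summed reads, 0.41, ranged from -0.14 (without 5-FC replicate B) to 0.81 with a replicate left out, and the diversity of the pool of ALO1 and ADE17 was -0.12 without strain 838. The cause of these changes was not tested.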
